A study of Mus musculus with 18 samples.

Results

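The gene expression of the exorbital lacrimal gland (LG) was compared between male NOR/LtJ mice and male BALB/cJ mice at 8 weeks of age. The members were chosen by their labels alone: 3 NOR and 3 BALB/c libraries, 6 of the 18 RNA-seq libraries in the series, with every gene that passed a low-count filter. NOR/LtJ is a strain related to the non-obese diabetic (NOD) mouse that does not become diabetic but whose males develop autoimmune inflammation of the LG, and BALB/cJ is the control strain. The remaining libraries were glands of the same strains at 3 and 16 weeks, with 3 for each strain and age. Those of 3 weeks, before infiltrates appear, served as a second strain comparison on other libraries. The mice carried no transgene and received no treatment by the labels. By the study's methods each 8-week library was pooled from several mice, and no pooling is stated for the 3-week libraries, so age and pooling cannot be told apart. The library titles of the diseased strain read NOD while their genotype label reads NOR/LtJ, and they were taken as NOR.

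The LG secretes the aqueous layer of the tear film. Its acinar cells release lipid-binding lipocalins, lactoferrin and peroxidases under cholinergic and peptidergic control, and its ducts add water and salts. In autoimmune dacryoadenitis, lymphocytes gather around the ducts and vessels, antigen is presented on MHC class II, and interferons switch on a shared set of antiviral and antigen-processing genes through their transcription factors. Several of these genes carry in their promoters the interferon-stimulated response element (ISRE) or the gamma-activated site (GAS), which factors activated by interferon signalling bind.

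The 8-week libraries held 14460004 to 19548196 counts on genes, and 3 counts, taken as the floor of detection, amounted to 0.153 to 0.207 CPM (counts per 1000000 counts). CPM below are scaled by edgeR's TMM factors. Folds are powers of the fitted log2 fold change. Of the 12 LG identity genes tested, 1 was called higher and 1 lower in NOR by the test below, with a median log2 fold change of 0.04. For 9 of the 12 the libraries of both strains did not overlap, against 45.1% of all genes tested. Aqp5 of this list, the apical water channel, was at 117, 119 and 129 CPM in NOR and at 112, 116 and 114 CPM in BALB/c. Whether it tells LG from parotid tissue was not tested. Genes of the parotid gland were also present and uneven. The summed level of 5 of them (Bpifa2, Amy1, Smr3a, Cst10 and Dcpp1) was 3730, 17597 and 2502 CPM in the 3 NOR libraries and 2029, 549 and 64.1 CPM in the 3 BALB/c libraries. The summed level of 5 skeletal muscle genes was 101, 102 and 8.64 CPM in NOR and 30.4, 113 and 2.03 CPM in BALB/c. At 8 weeks the parotid sum was thus higher in all NOR libraries than in any BALB/c library, and the muscle sums overlapped. At 3 weeks the parotid sum was 72.4, 70328 and 69588 CPM in NOR and 1.53, 14370 and 2.03 CPM in BALB/c. The 3-week calls and the test of the change between ages rest on these uneven libraries too. With the level of the 5 parotid genes as a covariate, an alternative added after seeing the data, 1371 of the calls below were kept, and with muscle genes added, 1377. In bulk tissue, fewer cells of a type and less RNA per cell cannot be told apart.

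At 8 weeks the NOR gland differed from the BALB/c gland mainly upward. Of 13376 genes tested, 1549 (11.6%) were called differentially expressed (DEGs) by edgeR's quasi-likelihood test with a Benjamini-Hochberg adjusted p no higher than 0.05 and a fold change of 2 or more in size (1 on the log2 scale). Of these, 1195 (8.93% of genes tested) rose in NOR and 354 (2.65%) fell. The median log2 fold change over all genes was 0.02. Among the 1195 genes that rose, 614 reached 2 and 153 reached 4 on the log2 scale, and only 21 had a mean of 100 CPM or more in either strain. The genes that fell included 23 at that level. In 54 of the genes that rose, no count was found in any BALB/c library, and 7 of the genes that fell had none in any NOR library. Without the fold cutoff, 2189 genes (16.4%) were higher and 1524 (11.4%) lower in NOR at the same adjusted p. The libraries of both strains did not overlap for 6029 genes (45.1%). The smallest two-sided p that an exact permutation of 3 against 3 libraries can give is 0.1, so single values were tested in the fit across all genes.

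Most genes that rose at 8 weeks were not called in the 3-week glands. At 3 weeks 703 genes (5.26%) were called, of which 474 genes (3.54%) were higher in NOR and 229 (1.71%) lower. Of the 1195 genes that rose at 8 weeks, 249 also rose at 3 weeks, 2 fell and 944 were not called, and their median log2 fold change was 2.04 at 8 weeks and 0.56 at 3 weeks. Of the 354 genes that fell at 8 weeks, 137 also fell at 3 weeks, 4 rose and 213 were not called, with medians of −1.58 and −0.92. In reverse, the 8-week calls held 52.5% of the 3-week genes that rose and 59.8% of those that fell. A gene called at only the later age was not thereby shown to differ between ages, so the change of the strain difference was tested itself. That test called 173 genes (1.29%) upward and 124 (0.927%) downward, 2.22% in all, and without the fold cutoff 268 (2%) and 235 (1.76%), 3.76% in all. It called 121 of the 944 genes upward and 44 of the 213 genes downward. The upward count depended on single libraries: it was 90 without NOR 8-week replicate 1, 84 without NOR 3-week replicate 1, 109 and 104 without BALB/c 3-week replicates 1 and 2, and 101 without BALB/c 8-week replicate 2. With the 5 parotid genes as a covariate, the test of the change called 250 genes upward and 141 downward.

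**Figure D1:**
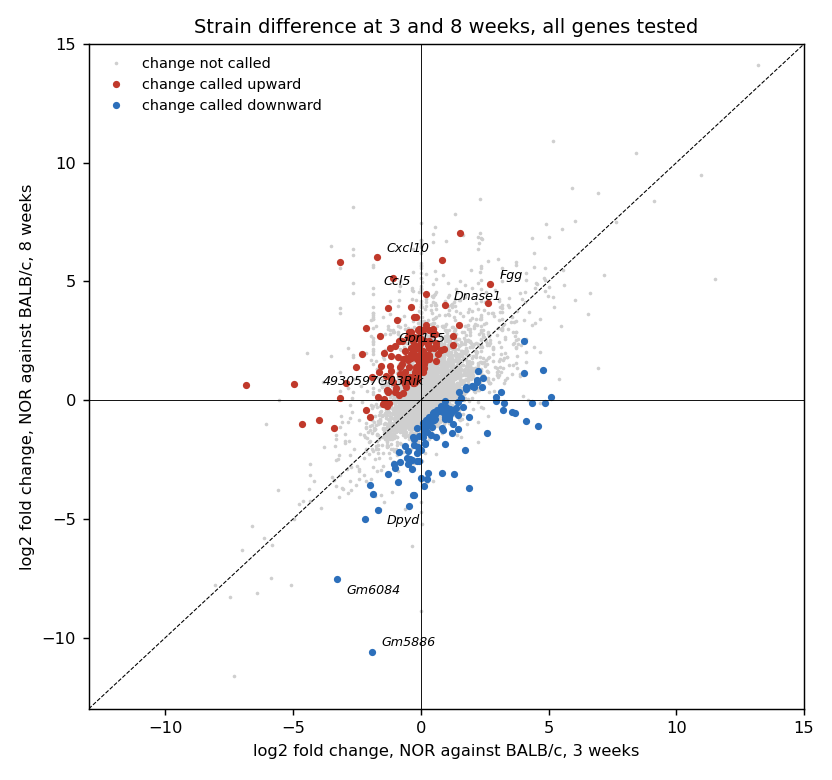
Each point is 1 of the 13376 genes tested, with the log2 fold change of NOR against BALB/c at 3 weeks on the x axis and at 8 weeks on the y axis. Red points are the 173 genes whose strain difference changed upward and blue points the 124 genes whose difference changed downward, and the dashed line marks equal differences at both ages.

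Several of the 10 genes of smallest p that rose at 8 weeks were near 0 in BALB/c, and all of them had also risen at 3 weeks. Gene positions are those of the mm10 build, and the counts are of reads on exons. BC018473 (chr11:116752167-116757883) had 1167, 1372 and 1421 CPM in NOR and 0.0786, 0.0699 and 0.0564 CPM in BALB/c. The libraries were far apart, with 3 counts in all of BALB/c, a ratio of 22499 (exact 95% interval 7699 to 109104, counting error only), and the 3-week log2 fold change was 13.22 against 14.10 at 8 weeks. Asgr1 (chr11:70054369-70057894), a subunit of the asialoglycoprotein receptor best known from hepatocytes, had 128, 131 and 142 CPM in NOR and 0.157, 0 and 0.113 CPM in BALB/c. The ratio of its counts was 1710 (interval 668 to 6280), and the gene had risen at 3 weeks as well. Hapln4 (chr8:70083529-70090862), a link protein of the extracellular matrix, had 1 count in the BALB/c libraries and 20.3, 22.5 and 23.4 CPM in NOR.

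Ceacam2 (chr7:25516042-25540004), a cell adhesion molecule, rose 338-fold, and its span overlaps 4732471J01Rik. Slc37a1 (chr17:31295483-31350698), a sugar-phosphate exchanger, rose 13.2-fold, and Rsph1 (chr17:31255020-31277356), a radial spoke protein of cilia that lies beside it, was at 7.16, 7.13 and 7.82 CPM in NOR and at no more than 0.280 CPM in BALB/c. Coro2a (chr4:46536937-46601929), an actin-binding coronin, rose 33.0-fold and Cd59a (chr2:104095801-104115351), the inhibitor of the complement membrane attack complex, 7.97-fold. For these genes, as for BC018473, Asgr1 and Hapln4, the change between ages was not called. Abcb1a (chr5:8660092-8748570), a multidrug efflux pump, was at 29.4, 28.0 and 32.9 CPM in NOR and at 1.49, 1.54 and 2.20 CPM in BALB/c. Its log2 fold change of 4.08 ± 0.16 (SE) exceeded that of 2.62 at 3 weeks, and the change was called (adjusted p = 0.0022).

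Fgg (chr3:83007896-83015049), the gamma chain of fibrinogen, was at 468, 477 and 513 CPM in NOR and at 11.6, 20.2 and 17.9 CPM in BALB/c at 8 weeks. At 3 weeks it was at 608, 488 and 534 CPM in NOR and at 74.2, 111 and 61.3 CPM in BALB/c, so the groups did not overlap at either age, and its strain difference widened by 2.15 on the log2 scale (adjusted p = 0.000795). The alpha chain gene Fga had 0 counts in all 6 of the 8-week libraries. The beta chain gene Fgb had 2, 15 and 3 counts in NOR and 0, 1 and 1 in BALB/c and was not tested. Among the 16 plasma protein genes of hepatocyte type that passed the filter, 6 rose and none fell at 8 weeks. Of all genes tested, 8.93% rose and 2.65% fell. At 3 weeks 6 of the 16 had risen, against 3.54% of all genes. Mug1, a protease inhibitor of the macroglobulin family, rose 16.3-fold, Serpina3n, a serine protease inhibitor of the acute phase, 7.65-fold, and haptoglobin (Hp) was at 703, 737 and 709 CPM in NOR and at 825, 665 and 709 CPM in BALB/c. The albumin gene had no count in any of the 6 libraries.

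Of the genes that fell, Dpyd (chr3:118562178-119432918), which starts the breakdown of uracil and thymine, had the smallest p. It was at 1.94, 3.35 and 2.17 CPM in NOR and at 58.0, 58.6 and 66.2 CPM in BALB/c, a log2 fold change of −4.62 ± 0.14 (SE) with an adjusted p of 2.53e-14. The groups were far from overlapping, and the 3-week log2 fold change was −1.68, so the strain difference widened (adjusted p of the change = 3.67e-08). Upb1, which acts later in the same pathway, was at 2.40, 2.05 and 2.82 CPM in NOR and at 16.7, 15.2 and 15.6 CPM in BALB/c and its difference also widened, from −1.05 to −2.70. The median of the 28 genes of pyrimidine and amino acid catabolism tested was −0.21, and none rose. Of the 28, 5 fell, against 2.65% of all genes. The other three were Asrgl1 (chr19:9111719-9135566), an asparaginase (4.21-fold lower), Arg1, which splits arginine (6.01-fold lower), and Dhtkd1 of lysine breakdown (3.75-fold lower). Dpyd, Asrgl1, Upb1 and Dhtkd1 had fallen at 3 weeks, whereas Arg1 had a 3-week log2 fold change of −0.81, under the fold cutoff, and its change of −1.78 was called.

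H2-Ea-ps (chr17:34342212-34344645) is the gene of the MHC class II E alpha chain, annotated as a pseudogene in the reference strain C57BL/6. It had no count in any NOR library and 25.3, 21.3 and 29.1 CPM in BALB/c, at least 122-fold lower in NOR against a floor of 3 counts a library. Htr5b (chr1:121509773-121528465), a serotonin receptor gene, had 2 counts in NOR and 13.4, 16.9 and 15.2 CPM in BALB/c. Tmem181c-ps (chr17:6610103-6620925), whose span overlaps Dynlt1c and Dynlt1f, was 168-fold lower by counts (interval 71.9 to 520). BC048546 (chr6:128539822-128581606), Arhgap18 (chr10:26772512-26918648), a GTPase-activating protein, and Eml1 (chr12:108410655-108539564), a microtubule-binding protein whose span overlaps Gm16596, fell 23.6-, 17.1- and 7.27-fold. All of these had fallen at 3 weeks too.

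Gm5886 (chr6:133763999-133767403) was the most abundant of the genes that fell by this rule. It was at 1.06, 1.61 and 0.529 CPM in NOR and at 1645, 1591 and 1710 CPM in BALB/c. At 3 weeks none of the 6 libraries exceeded 0.726 CPM, so both strains were near the floor then. The 8-week log2 fold change was −10.59 ± 0.41 (SE), and the change between ages was called (adjusted p = 0.0174). Gm6084 (chr17:40727120-40731782) fell to 1.06, 2.23 and 2.12 CPM against 468, 240 and 304 CPM, from a 3-week log2 fold change of −3.29 to −7.55.

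**Figure D2:**
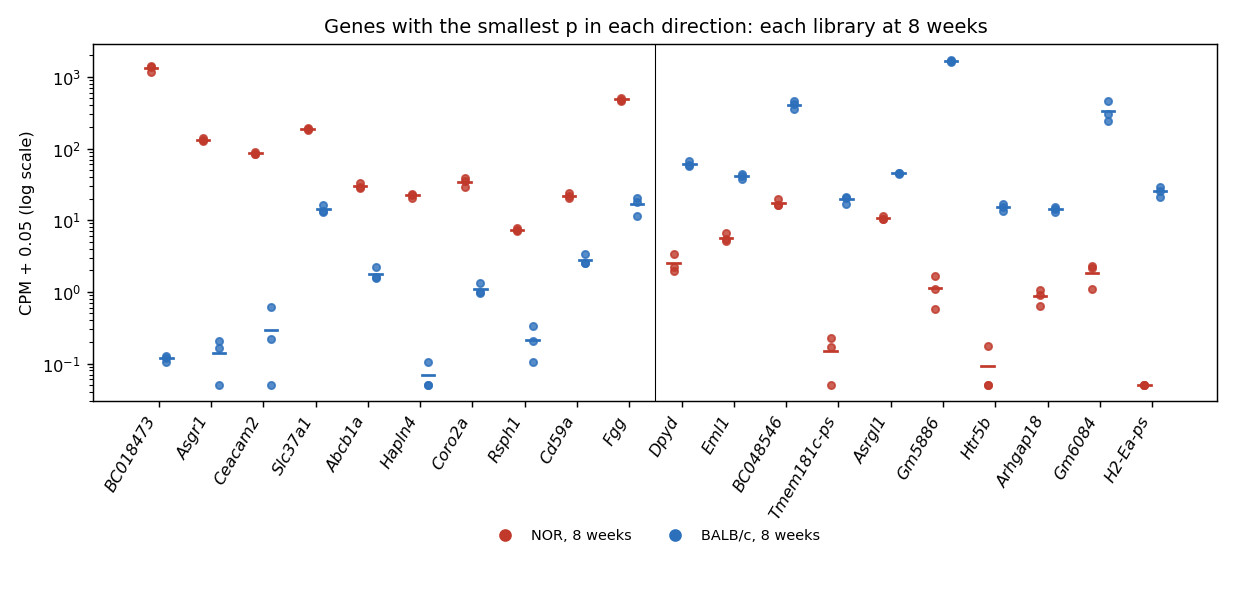
CPM + 0.05 on a log scale in each 8-week library of NOR (red) and BALB/c (blue), with the mean as a bar, for the 10 genes of smallest p that rose (left of the line) and the 10 that fell. For none of the 20 genes, which were chosen by p in these libraries, do the libraries of both strains overlap. Nor do they for 98.7% of all genes that rose and 99.4% of those that fell. Points at 0.05 are libraries with no count.

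The genes of smallest p in the change between ages included secreted and membrane proteins of the gland. Gpr155, an integral membrane protein that senses cholesterol in the lysosome, was at 40.1, 30.9 and 31.4 CPM in NOR and at 7.47, 5.66 and 8.80 CPM in BALB/c at 8 weeks. At 3 weeks the order was the opposite, with 13.1, 10.2 and 10.2 CPM in NOR and 25.6, 28.0 and 25.4 CPM in BALB/c, and the change of 3.43 ± 0.21 (log2, SE) had an adjusted p of 1.72e-08. Dnase1, the secreted nuclease that degrades extracellular DNA, was at 3484, 3933 and 3886 CPM in NOR and at 267, 191 and 251 CPM in BALB/c, and rose 15.9-fold. Its 3-week values were 8233, 8727 and 10178 CPM in NOR and 4538, 4696 and 5002 CPM in BALB/c, where its log2 fold change of 0.93 missed the fold cutoff. The Dnase1 span overlaps that of Trap1, which held 4353 counts in the 8-week libraries against 188965 of Dnase1 in NOR and 10586 in BALB/c. Cdo1, which oxidizes cysteine on the way to taurine, rose 4.32-fold at 8 weeks from a 3-week log2 fold change of 0.77.

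Not all of these genes were called at 8 weeks. Slc41a2, a magnesium transporter, passed the adjusted p but not the fold cutoff at 0.51, and was at 98.4, 105 and 104 CPM in NOR against 79.1, 61.9 and 74.4 CPM in BALB/c, and 4930597G03Rik overlapped between strains at 8 weeks after a 3-week log2 fold change of −3.15. In the other direction, St6galnac2, which adds sialic acid to O-glycans, was at 37.8, 42.8 and 37.8 CPM in NOR and at 193, 189 and 166 CPM in BALB/c. Baiap2l1, a membrane-bending adaptor of the actin cytoskeleton whose span overlaps Bri3 and Gm15708, fell 3.97-fold, and Rell1, a receptor of the RELT family, 2.91-fold. For St6galnac2, Baiap2l1 and Rell1 the 3-week log2 fold changes lay between −0.15 and 0.09.

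Besides Gpr155, the genes called in opposite directions at the 2 ages were Ifi44, an interferon-stimulated gene, and in the other direction Bmp6, Adora1, Mup5 and Odam, named here after their values were seen. The log2 fold change of Ifi44 was −1.56 in the 3-week and 1.43 in the 8-week glands. Bmp6, a growth factor of the BMP family that also controls iron balance, was at 0.293, 0.372 and 0.294 CPM in NOR and at 4.17, 5.38 and 3.22 CPM in BALB/c at 8 weeks. At 3 weeks it was at 0.357, 0.761 and 0.703 CPM in NOR and at 0.109, 0.161 and 0.190 CPM in BALB/c, so the 3-week call rests on few counts. The major urinary protein gene Mup5 went from 2.58 to −1.38, the adenosine receptor gene Adora1 from 1.30 to −3.09 and the secreted protein gene Odam from 1.22 to −1.39. The Mup5 family has near-identical copies between which short reads may be split.

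The 18 lists of immune cell types, antigen presentation, cytokines, interferon response, complement and Fc receptors held 261 genes tested. Of these, 178 (68.2%) rose and 3 fell at 8 weeks, where 8.93% of all genes tested rose and 2.65% fell. Genes on these lists made up 14.9% of the genes that rose, a share that leaves out immune genes on no list. Their median log2 fold change was 2.17, against 0.02 for all genes. At 3 weeks 16 of the 261 rose and 4 fell, with a median of 0.25. The change between the ages was called upward for 39 and downward for 1, the complement gene C7. C7 was at 29.4, 26.9 and 22.8 CPM in NOR and at 25.6, 24.3 and 24.7 CPM in BALB/c at 8 weeks, and had risen at 3 weeks.

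**Figure D3:**
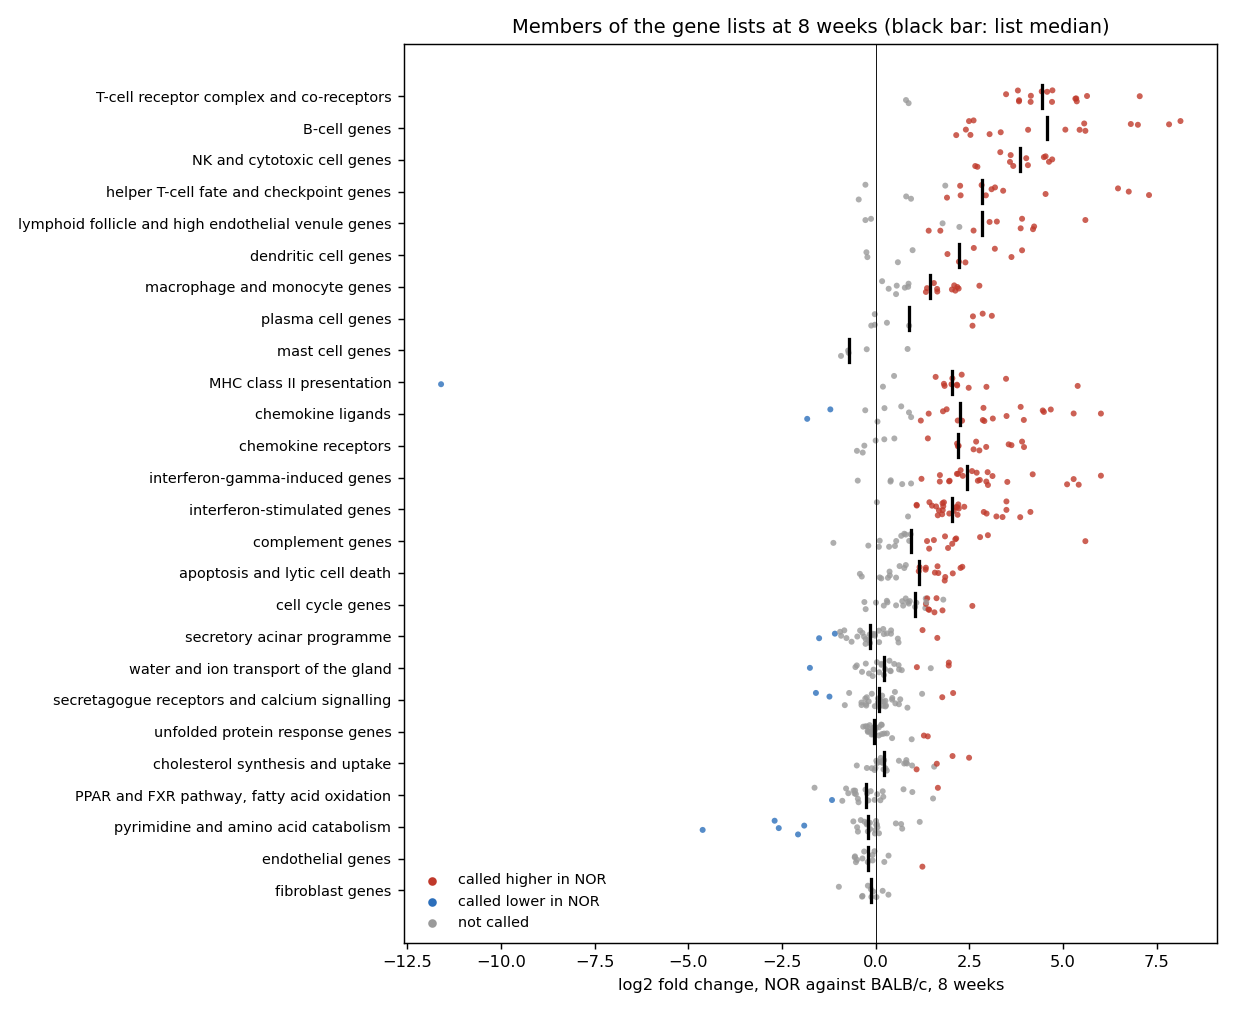
Each point is a gene, placed by its log2 fold change of NOR against BALB/c at 8 weeks, in rows of gene lists, and the black bar is the median of the list. The lists of lymphocytes, antigen presentation, chemokines and interferon response have medians between 2.02 and 4.56, and those of the secretory programme, ion transport, endothelium and fibroblasts between −0.21 and 0.22.

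Genes of T cells rose almost throughout. Of 17 genes of the T-cell receptor complex and its co-receptors, 15 rose and none fell, with a median log2 fold change of 4.43, or 4.13 with the genes that had no BALB/c count set to their lower bound. Cd4, the co-receptor of helper T cells, was at 6.45, 4.4 and 4.35 CPM in NOR and at 0.472, 0.280 and 0.339 CPM in BALB/c, and rose 13.9-fold. Cd8a, the co-receptor of cytotoxic T cells, was at 1.99, 0.992 and 1.12 CPM in NOR with 2 BALB/c libraries at 1 count each, a count ratio of 35.2 (interval 9.38 to 296). Cd3e, a chain of the receptor complex, had no BALB/c count and was at 2.29, 0.310 and 0.588 CPM in NOR, at least 6.07-fold higher. Neither strain overlapped the other for these 3 genes, and the first NOR library was the highest for each. The exceptions were Thy1, also found on fibroblasts and nerve cells, at 11.4, 7.13 and 6.93 CPM against 3.77, 6.43 and 4.34 CPM, and Cd27, at 1.88, 1.55 and 1.06 CPM against 0.865, 0.909 and 0.677 CPM. With Thy1 and Cd27 the list summed to only 6.29, 8.39 and 6.43 CPM in BALB/c. Most of the other members can thus pass the low-count filter only through other groups. That nearly all of those tested rose is in part set by the filter.

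All 16 B-cell genes tested rose, with a median of 4.56, or 3.19 with 4 genes at their lower bound. They summed to 3.38, 1.89 and 3.84 CPM in BALB/c, so most of them can pass the low-count filter only through other groups. A rise of all those tested is thus in part set by the filter. Ms4a1, which encodes CD20, had no BALB/c count and was at 4.11, 0.930 and 1.76 CPM in NOR, at least 12.8-fold higher. Cd79b, a signalling chain of the B-cell receptor, was 55.7-fold higher by counts (interval 18.7 to 273). Plasma cell genes rose in part: 4 of 9, with a median of 0.89. Igj, the joining chain of secreted IgA and IgM, was at 248, 244 and 244 CPM in NOR and at 13.8, 10.7 and 60.1 CPM in BALB/c, 2010001M09Rik (Mzb1), a chaperone of antibody assembly, rose 7.23-fold and Irf4, a transcription factor of plasma cells, 6.04-fold. Xbp1, which secretory epithelium also expresses, was at 584, 512 and 595 CPM in NOR and at 497, 427 and 451 CPM in BALB/c.

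All 12 genes of natural killer (NK) and cytotoxic cells tested rose, with a median of 3.84. They summed to 1.42, 1.19 and 1.47 CPM in BALB/c, and most genes this low there can pass the low-count filter only through other groups. That all of those tested rose is thus in part set by the filter. Klrk1, the activating receptor NKG2D, was at 7.74, 3.10 and 2.06 CPM in NOR and at 0.0786, 0.210 and 0.226 CPM in BALB/c. Nkg7, a protein of cytotoxic granules, rose 30.6-fold by counts (interval 11.6 to 114) and Gzma, granzyme A, 14.5-fold (7.40 to 32.4). Of 17 genes of helper T-cell fate and checkpoints, 12 rose, with a median of 2.83, or 2.27 with 3 genes at their bound. The inhibitory receptors Pdcd1 (PD-1) and Ctla4 had no BALB/c count and were at least 7.16- and 4.01-fold higher. Tbx21, the transcription factor of type 1 helper cells, was at 1.17, 0.496 and 0.411 CPM in NOR with 1 count in BALB/c. Foxp3, the factor of regulatory T cells, had libraries that overlapped (0.762, 0.0620 and 0.353 CPM against 0, 0.0699 and 0.0564 CPM). It passed the test, with an adjusted p of 0.0316, but not without NOR replicate 1 or any one of the BALB/c libraries. The gene of interferon gamma, Ifng, had 1, 4 and 2 counts in NOR and none in BALB/c and was not tested. Of the lists of lymphocytes, no member of the T-cell, B-cell and NK lists was called in the change from 3 to 8 weeks (lowest adjusted p of 0.14, 0.139 and 0.135), with counts near the floor at 3 weeks in both strains.

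The lymphocyte signal differed between the NOR libraries. The summed level of the T-cell list was 61.2, 27.5 and 29.0 CPM in NOR and 6.29, 8.39 and 6.43 CPM in BALB/c. That of the B-cell list was 53.8, 21.4 and 31.3 CPM against 3.38, 1.89 and 3.84 CPM, and that of the NK list 33.1, 13.6 and 11.4 CPM against 1.42, 1.19 and 1.47 CPM. Replicate 1 was the highest NOR library on each list, and all 3 NOR libraries lay above every BALB/c library. Without it, 15 T-cell genes (median 3.59), 12 B-cell genes (4.06) and 9 NK genes (3.32) were called.

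**Figure D4:**
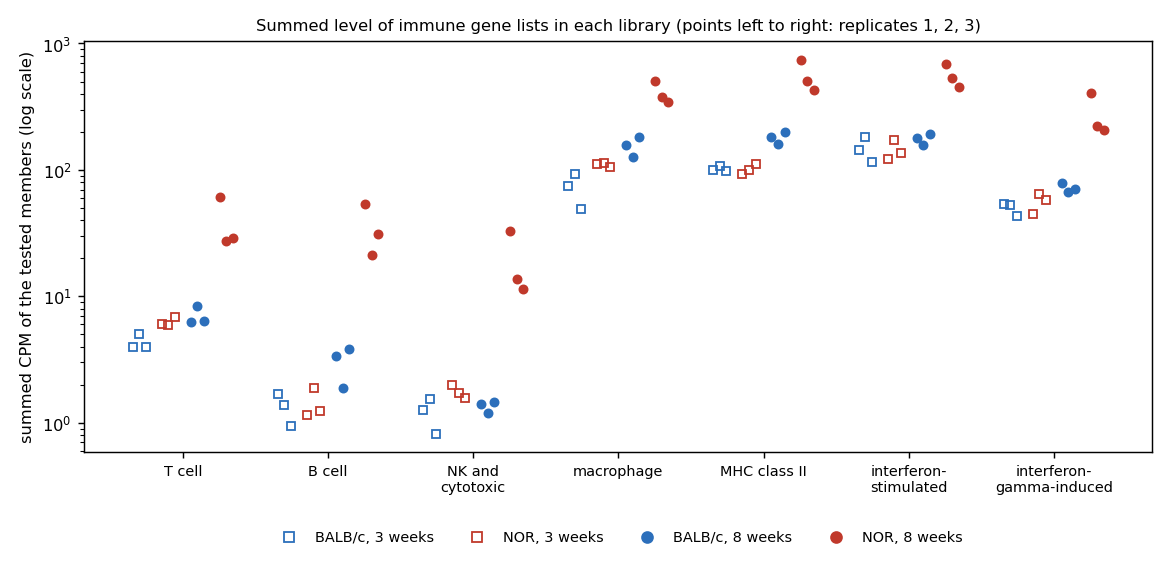
Summed CPM of the tested members of 7 immune gene lists in each library on a log scale, with 3-week libraries as open squares and 8-week libraries as filled circles, BALB/c in blue and NOR in red. On each list the 3 NOR libraries of 8 weeks lie above all others, with replicate 1 the highest.

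Myeloid lists had lower medians. Of 18 macrophage and monocyte genes, 11 rose and none fell (median 1.46), and of 11 dendritic cell genes 7 rose (median 2.22), or 4 with only genes of a mean CPM of at least 1 or in a model of the compared groups alone. Cx3cr1, the fractalkine receptor, was at 10.8, 9.98 and 6.88 CPM in NOR and at 1.18, 1.82 and 1.07 CPM in BALB/c, and the change from 3 weeks was called at 2.28 (adjusted p = 0.00307). Emr1 (F4/80) rose 4.53-fold, Cd68, a lysosomal protein of macrophages, 3.11-fold, and Trem2, a lipid-sensing receptor, 4.27-fold, while Csf1r, the receptor of the macrophage growth factor, passed the adjusted p but not the fold cutoff at 0.78. Among dendritic cell genes, Itgax (CD11c) rose 9.06-fold, and Siglech of plasmacytoid dendritic cells overlapped between strains (log2 fold change −0.25). Of 2 neutrophil genes tested 1 rose, and none of 5 mast cell genes was called, or 1 without NOR replicate 1 or without BALB/c replicate 2.

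Of 15 genes of MHC class II presentation, 12 rose, with a median of 2.05. H2-Ab1, a class II beta chain, was at 94.0, 64.1 and 52.3 CPM in NOR and at 15.1, 14.5 and 16.8 CPM in BALB/c, and Cd74, the invariant chain, at 262, 186 and 156 CPM against 55.3, 53.0 and 62.5 CPM. The difference of both widened from 3 to 8 weeks, by 1.65 and 1.55 on the log2 scale, as did that of Ctss, the protease that trims the invariant chain, by 1.71. H2-Eb1, the beta chain that pairs with the E alpha chain, rose 4.06-fold in the glands in which H2-Ea-ps, the list's member that fell, had no count. Ciita, the master regulator of these genes, rose 4.49-fold, and Rfx5, which binds their promoters in all cells, was at 8.80, 8.68 and 8.34 CPM against 6.92, 8.74 and 6.94 CPM.

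Chemokine genes rose in 18 of 26 cases and fell in 2, with a median of 2.25. Cxcl9, a ligand of CXCR3 that interferon gamma induces, was at 17.8, 5.39 and 6.23 CPM in NOR and at 0.157, 0.140 and 0.395 CPM in BALB/c, a 38.9-fold rise. Cxcl10, a ligand of the same receptor, was at 5.45, 2.42 and 2.29 CPM with 2 counts in BALB/c, and its change of 7.73 ± 1.67 (log2, SE) from 3 weeks was called (adjusted p = 0.0128). Ccl5, a chemokine that attracts T cells and monocytes, was at 9.91, 4.90 and 3.41 CPM against 0.315, 0.280 and 0.226 CPM, and its strain difference changed by 4.24. Cxcl16 (4.94-fold), the ligand of CXCR6, and Ccl9 (3.71-fold) rose as well and also widened from 3 weeks. The members that fell were Ccl28, a mucosal chemokine of glandular epithelium that attracts IgA plasma cells, at 96.5, 135 and 86.6 CPM in NOR and 222, 282 and 231 CPM in BALB/c, and Ccl24, at 0.352, 0.496 and 0.235 CPM against 1.73, 0.699 and 1.47 CPM.

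Of 18 chemokine receptor genes, 12 rose and none fell, with a median of 2.20. Cxcr3, the receptor of Cxcl9 and Cxcl10, rose 19.1-fold by counts (interval 7.16 to 72.0). Of 14 genes of lymphoid follicles and high endothelial venules, 10 rose. Ltb, the membrane form of lymphotoxin that organizes lymphoid tissue, was 23-fold higher by counts (interval 9.59 to 72.3), and Ccl19, which attracts T cells through CCR7, 18.7-fold (6.07 to 93.4). The follicle chemokine gene Cxcl13 was at 6.74, 3.97 and 5.05 CPM in NOR and 2.44, 0.629 and 2.76 CPM in BALB/c (log2 fold change 1.41). Its call was lost without NOR replicate 1 or BALB/c replicate 2, by DESeq2, by glmTreat and with the parotid genes as a covariate. Without NOR replicate 1, 7 of the 14 were called. Of 12 interleukin genes tested 3 rose, and Il12b, the p40 subunit of IL-12 and IL-23, had no BALB/c count and was at least 3.18-fold higher. Without NOR replicate 1 or BALB/c replicate 2, 1 of the 12 was called.

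The strain difference of the interferon genes changed with age. Of 30 interferon-stimulated genes, 28 rose at 8 weeks and none fell, with a median of 2.02. At 3 weeks 2 rose and 2 fell, with a median of −0.08, and the change was called upward for 19 of the 30, against 1.29% of all genes. Of 28 interferon-gamma-induced genes, 23 rose, with a median of 2.45, none was called at 3 weeks and 9 changed upward. Their summed level was 408, 222 and 208 CPM in NOR and 79.2, 66.9 and 70.1 CPM in BALB/c, and that of the interferon-stimulated list 688, 529 and 453 CPM against 178, 157 and 192 CPM. Without NOR replicate 1, 26 and 20 genes of these lists were called, with medians of 1.76 and 2.00.

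Ifit1, which binds viral RNA, was at 12.6, 10.9 and 7.99 CPM in NOR and at 1.34, 1.33 and 1.35 CPM in BALB/c and changed by 2.91 from 3 weeks, Oasl2 by 2.42 and Irf7, the factor that amplifies interferon production, by 2.42. Xaf1, an interferon-induced protein of apoptosis, had the smallest p of the list (17.5-fold) and had already risen at 3 weeks, and Zbp1, a sensor of Z-form nucleic acid, rose 14.5-fold. The sensors of viral RNA behaved differently: Ifih1 (MDA5) was at 23.3, 21 and 20.2 CPM in NOR and at 21.8, 20.2 and 21.1 CPM in BALB/c after a fall at 3 weeks, and Ddx58 (RIG-I) passed the adjusted p but not the fold cutoff at 0.86. Both had a change called upward.

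Among the interferon-gamma-induced genes, Gbp2, a GTPase that attacks vacuoles of pathogens, was at 35.1, 17.9 and 14.8 CPM in NOR and at 4.09, 1.82 and 2.71 CPM in BALB/c. Igtp (Irgm3), a GTPase of the same defence, rose 8.67-fold, and Psmb9, a subunit of the immunoproteasome, 6.86-fold. Irf1, the first factor that interferon gamma induces, was at 41.2, 25.4 and 23 CPM against 18.8, 15.1 and 12.9 CPM, a log2 fold change of 0.94 that passed the adjusted p but not the fold cutoff. Gbp10 overlapped between strains.

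The promoters of these genes are shown because the strain difference of 19 of the 30 interferon-stimulated genes changed between the ages. RefSeq windows of GRCm38.p6 (the mm10 build), from 250 bases before to 50 bases after the gene start, were searched on both strands for the ISRE core (GAAA, any 2 bases, GAAA) and for GAS (TTC, any 3 bases, GAA). Of the 27025 windows listed, 943 (3.49%) held the ISRE core and 8.47% held GAS. A window was listed for 21 of the 30 interferon-stimulated genes, and 12 of them held the ISRE core. Of 20 interferon-gamma-induced genes with a window, 11 held the ISRE core and 10 held GAS. These shares were not compared with a test, since only 79.5% of the genes tested had a window. The following are the 5 genes of smallest p at 8 weeks whose window held the ISRE core, in capitals, and the gene of smallest p, Xaf1, whose window held none, each written 5′ to 3′ along the gene.
Ifit1: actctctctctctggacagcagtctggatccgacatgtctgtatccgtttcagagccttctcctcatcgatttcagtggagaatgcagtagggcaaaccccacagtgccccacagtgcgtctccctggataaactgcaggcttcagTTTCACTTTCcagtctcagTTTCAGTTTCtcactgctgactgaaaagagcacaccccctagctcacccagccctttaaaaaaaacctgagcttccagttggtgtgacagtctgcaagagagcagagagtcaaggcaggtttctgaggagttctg
Gbp2: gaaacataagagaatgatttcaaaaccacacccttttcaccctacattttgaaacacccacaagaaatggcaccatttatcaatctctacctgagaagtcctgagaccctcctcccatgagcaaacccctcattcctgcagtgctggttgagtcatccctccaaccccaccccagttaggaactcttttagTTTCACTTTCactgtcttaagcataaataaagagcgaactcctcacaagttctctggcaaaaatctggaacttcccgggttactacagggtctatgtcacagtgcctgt
Igtp: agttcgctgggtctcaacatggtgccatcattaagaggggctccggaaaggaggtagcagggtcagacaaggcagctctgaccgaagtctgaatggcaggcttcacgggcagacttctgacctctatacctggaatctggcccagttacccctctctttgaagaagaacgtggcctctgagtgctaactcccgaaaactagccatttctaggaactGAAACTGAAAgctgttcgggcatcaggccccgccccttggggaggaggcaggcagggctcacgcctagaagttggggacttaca
Stat2: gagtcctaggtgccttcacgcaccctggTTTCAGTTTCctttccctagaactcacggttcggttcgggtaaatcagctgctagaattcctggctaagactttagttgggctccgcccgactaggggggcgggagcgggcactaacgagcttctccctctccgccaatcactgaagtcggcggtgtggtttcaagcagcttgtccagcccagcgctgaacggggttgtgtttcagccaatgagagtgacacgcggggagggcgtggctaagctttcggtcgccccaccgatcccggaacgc
Bst2: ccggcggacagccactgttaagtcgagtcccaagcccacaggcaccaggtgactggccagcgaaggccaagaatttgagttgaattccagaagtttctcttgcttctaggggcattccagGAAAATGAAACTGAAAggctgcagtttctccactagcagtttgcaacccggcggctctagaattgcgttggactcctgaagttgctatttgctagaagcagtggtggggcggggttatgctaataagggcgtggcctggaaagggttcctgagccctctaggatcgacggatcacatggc
Xaf1: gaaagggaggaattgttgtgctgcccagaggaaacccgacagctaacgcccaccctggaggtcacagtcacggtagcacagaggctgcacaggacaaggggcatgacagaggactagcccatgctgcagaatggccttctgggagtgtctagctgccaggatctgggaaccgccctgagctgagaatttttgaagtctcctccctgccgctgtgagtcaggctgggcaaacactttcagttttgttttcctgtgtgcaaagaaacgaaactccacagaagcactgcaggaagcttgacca

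The Ifit1 window (chr19:34640639-34640938 on the plus strand) held 2 separate cores 75 to 104 bases before the start. Those of Gbp2 (chr3:142620413-142620712 on the plus strand) and Igtp (chr11:58199306-58199605 on the plus strand) held 1 core each, 49 to 59 and 24 to 34 bases before it. The Stat2 window (chr10:128270248-128270547 on the plus strand) held its core farther out, 212 to 222 bases before the start. The Bst2 window (chr8:71537423-71537722 on the minus strand) held 2 overlapping cores between 114 and 130 bases before the start. The Xaf1 window was chr11:72301379-72301678 on the plus strand. Ifit1, Gbp2, Stat2 and Bst2 had a change with age called upward, by 2.91, 2.51, 1.27 and 1.61 on the log2 scale. The change of Igtp was 2.20 with an adjusted p of 0.105 and that of Xaf1 1.61 with an adjusted p of 0.0564. Bst2, which tethers budding viruses, was at 23.9, 18.1 and 13.8 CPM in NOR and at 5.90, 4.13 and 5.75 CPM in BALB/c. Stat2, a transcription factor of the type I interferon response, rose 2.14-fold, to 0.96 on the log2 scale without NOR replicate 1.

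Complement genes had partly risen before. Of 23 tested, 11 rose at 8 weeks and 9 at 3 weeks. C4b, which marks surfaces for the C3 convertase, was at 81.5, 59.3 and 46.9 CPM in NOR and at 14.9, 8.67 and 18.5 CPM in BALB/c, with a log2 fold change of 2.15 at 8 weeks and 1.76 at 3 weeks, and Cfb of the alternative pathway rose 3.60-fold after a 3-week log2 fold change of 2.06. C3ar1, the receptor of the C3a fragment on myeloid cells, was not called at 3 weeks and its difference widened by 2.24. C3 itself was at 181, 123 and 129 CPM in NOR and at 95.4, 56.8 and 96.3 CPM in BALB/c, below the fold cutoff. Of 11 Fc receptor genes 5 rose, among them Fcer1g, the shared signalling chain (4.51-fold), and without NOR replicate 1, 3 did. Of 23 genes of apoptosis and lytic cell death, 12 rose and none fell, against 8.93% and 2.65% of all genes. Their median was 1.15. Tnfsf10 (TRAIL) rose 3.58-fold, Gsdmd, the pore of pyroptosis, 3.19-fold and Casp4 3.62-fold.

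With both cutoffs, secretory genes of the gland were called at about the share of all genes tested (11.6%). Of 31 genes of the acinar secretory programme, 2 rose and 2 fell, with a median log2 fold change of −0.15. At the adjusted p alone 4 of the 31 were higher and 8 lower, against 16.4% and 11.4% of all genes. The libraries of both strains did not overlap for 21 of them, against 45.1% of all genes. Pip, the prolactin-inducible protein of tears, was at 16219, 14737 and 18148 CPM in NOR and at 16813, 16548 and 18624 CPM in BALB/c. Lpo, the peroxidase of tears, was at 6204, 5902 and 7375 CPM against 7095, 7232 and 7990 CPM. Both overlapped between strains. Lcn11, a lipocalin, was at 7667, 7375 and 8792 CPM in NOR and at 2336, 2618 and 3319 CPM in BALB/c, a 2.88-fold rise.

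Car6, the secreted carbonic anhydrase, was at 501, 722 and 544 CPM in NOR and at 1787, 1482 and 1763 CPM in BALB/c, a log2 fold change of −1.51 ± 0.18 (SE) after −0.06 at 3 weeks, and the change was called (adjusted p = 0.0022). Barx2, a homeobox factor of LG development, was at 4.16, 5.52 and 4.47 CPM in NOR and at 11.2, 9.58 and 9.42 CPM in BALB/c and also changed, by −1.32. Both genes had groups that did not overlap. Bhlha15 (MIST1), which builds the secretory apparatus of acinar cells, Elf5, an epithelial transcription factor, and Rab27b, which acts in granule exocytosis, had log2 fold changes of −0.84, −0.95 and −0.92. Egf, the tear growth factor, had −0.64 and lactoferrin (Ltf) 0.61, and these 5 genes passed the adjusted p but not the fold cutoff. The members that rose were the lysozyme genes Lyz1 (2.38-fold) and Lyz2 (3.13-fold), near-identical copies of which Lyz2 is also a macrophage gene.

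Of 25 genes of water and ion transport, 3 rose and 1 fell, where 11.6% of all genes tested were called. Kcnn4, a calcium-activated potassium channel of secretory cells, was at 7.62, 8.74 and 5.82 CPM in NOR and at 29.8, 18 and 27.1 CPM in BALB/c. Aqp4, a basolateral water channel, rose 3.87-fold from 0.157, 0.769 and 0.169 CPM, Atp6v1b1, a subunit of the proton pump, rose 3.86-fold, and the chloride channel gene Ano1 was at 35.4, 36.3 and 36.0 CPM against 45.8, 40.3 and 43.3 CPM. Of 36 secretagogue receptor and calcium signalling genes, 2 rose and 2 fell, about the share called among all genes tested (11.6%). Prkca, protein kinase C alpha, was at 5.04, 4.46 and 4.76 CPM in NOR and at 14.5, 14.5 and 14.1 CPM in BALB/c and had fallen at 3 weeks. Vipr1, the receptor of vasoactive intestinal peptide, fell 2.35-fold, and Plcb1, a phospholipase C, rose 4.19-fold at 8 weeks and had risen at 3 weeks. Stim1, the calcium sensor of the endoplasmic reticulum, passed the adjusted p but not the fold cutoff at −0.71, and the muscarinic receptor gene Chrm3 had a log2 fold change of −0.28.

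**Figure D5:**
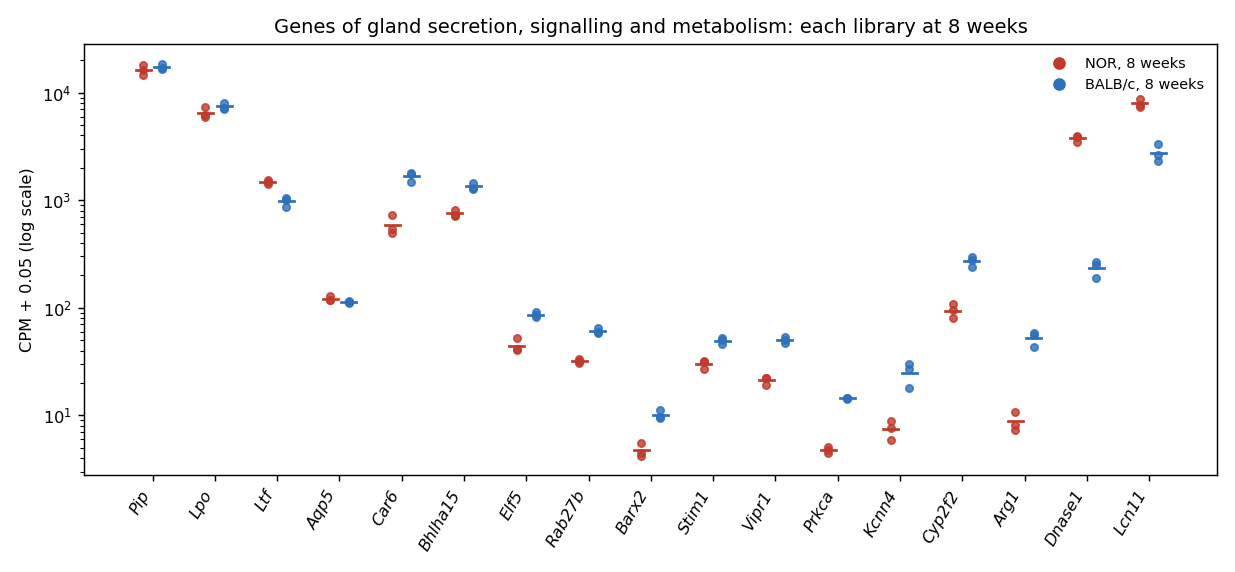
CPM + 0.05 on a log scale in each 8-week library of NOR (red) and BALB/c (blue), with the mean as a bar, for genes of secretion, ion transport, signalling and metabolism. Pip, Lpo and Aqp5 lie close together in both strains, Car6, Kcnn4, Prkca and Arg1 lie lower in NOR, and Dnase1 and Lcn11 lie higher.

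Among 20 myoepithelial and duct genes 2 rose and 1 fell, where 11.6% of all genes tested were called. Cldn7, a tight junction protein, was at 5.34, 5.08 and 4.82 CPM against 13.3, 12.5 and 12.9 CPM, and Cldn4, of the same family, rose 8.73-fold. Krt5, a keratin of basal and myoepithelial cells, overlapped between strains. Of 29 genes of the unfolded protein response 2 rose, the stress factors Atf3 (2.62-fold) and Trib3 (2.44-fold), against 8.93% of all genes. The chaperone gene Hspa5 (BiP) was at 1161, 1136 and 1347 CPM in NOR and at 1149, 1107 and 1179 CPM in BALB/c.

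In the lipid lists single genes were called, and the medians stayed near 0. Of all genes tested 11.6% were called, and the share was farthest above that for lipid efflux and lipid droplets. Of 27 genes of cholesterol synthesis and uptake 4 rose, and of 22 of fatty acid synthesis 2 rose and 1 fell. Of 26 of lipid efflux and lipid droplets 6 rose and 1 fell, and of 24 of the PPAR and FXR pathways 1 rose and 1 fell. The medians were 0.23, 0.10, 0.14 and −0.25 in that order. At the adjusted p alone 2 of the 24 PPAR and FXR genes were higher and 9 lower, against 16.4% and 11.4% of all genes. The libraries of both strains did not overlap for 18 of the 24, against 45.1% of all genes. The 3 calls of fatty acid synthesis were 1 with the parotid level as a covariate, and the 2 of the PPAR and FXR pathways were 4 in a model of the compared groups alone. Pmvk, phosphomevalonate kinase, was at 54.1, 49.2 and 69.0 CPM in NOR and at 7.55, 11.3 and 11.6 CPM in BALB/c, and its difference narrowed from a 3-week log2 fold change of 4.04. Fdft1, squalene synthase, rose 4.14-fold and was not called at 3 weeks. Thrsp, which promotes fatty acid synthesis, rose 4.94-fold. Apoe, the lipid carrier of macrophages, was at 263, 242 and 235 CPM in NOR and at 109, 77.4 and 109 CPM in BALB/c, Abcg1, a sterol efflux pump, rose 2.86-fold and Nr1h3, the sterol sensor LXR alpha, 2.37-fold.

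Mgll, which cleaves monoglycerides, was at 19.1, 17.2 and 14.8 CPM in NOR and at 48.4, 44.8 and 46.6 CPM in BALB/c, and had fallen at 3 weeks. Acadl, of mitochondrial fatty acid oxidation, fell 2.24-fold. Slc27a2, a fatty acid transporter, was at 1612, 1805 and 1777 CPM in NOR and at 2992, 2950 and 2684 CPM in BALB/c, a log2 fold change of −0.73 after 0.96 at 3 weeks, and its change was called (adjusted p = 0.000821). Of 34 cytochrome P450, aldehyde and retinoid enzyme genes, 7 rose and 2 fell, where 8.93% of all genes rose and 2.65% fell. Cyp2f2 was at 80.0, 94.6 and 108 CPM in NOR and at 299, 240 and 278 CPM in BALB/c, Hsd17b11, a steroid dehydrogenase of lipid droplets, fell 2.47-fold, and Cyp2a5 rose 2.65-fold.

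Genes of other tissues were checked in the same fit. Of the 12 parotid genes, Smr2 fell and Dcpp2 rose, and the other 10 were not called. The Dcpp2 call was lost by DESeq2, by glmTreat and without NOR replicate 2 or any 1 BALB/c library. In a model of the compared groups alone 7 of the 12 were called, among them Bpifa2 (log2 fold change 3.38, adjusted p = 0.0268), 4 were with no low-count filter and 5 with the parotid level as a covariate. Bpifa2, a secreted parotid protein, was at 2316, 11344 and 1527 CPM in NOR and at 1117, 299 and 33.3 CPM in BALB/c, so libraries of the same strain differed widely. Smr2 had no count in NOR and 5.11, 5.73 and 0.959 CPM in BALB/c, at least 19.2-fold lower in NOR, although Bpifa2 was higher in the NOR libraries. None of 14 skeletal muscle genes, 10 fibroblast genes, 6 nerve and glia genes and 2 red cell genes was called, but 1 fibroblast gene was called by DESeq2, with its size factors in edgeR, with no low-count filter, without NOR replicate 1, without BALB/c replicate 2 and with the covariates. Of 13 endothelial genes Vwf rose 2.37-fold, as it had at 3 weeks, with the list median at −0.21, and of 9 fat cell genes Cidea fell 8.55-fold and Lep, the leptin gene, rose, a call lost without NOR replicate 1 or any 1 BALB/c library. With the parotid and muscle levels as covariates, 27 interferon-stimulated, 15 T-cell and 16 B-cell genes were called, against 28, 15 and 16 without them. The same covariates lowered the calls from 12 to 8 for apoptosis and lytic cell death and from 3 to 1 each for interleukins and fatty acid synthesis, and Foxp3 was not called (adjusted p = 0.06).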

How the data were processed

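RNA of whole glands was measured in 18 libraries, which the labels call biological replicates within each group. The authors prepared strand-marking mRNA libraries and sequenced single short reads, aligned them to mm10 with HISAT2 and deposited raw counts per gene from featureCounts 1.6.2, over exons, with no strand option stated and without reads placed at several loci or on several genes. mm10 is the genome of C57BL/6J, and the effect of strain variants on mapping was not tested. Of 23337 genes in the count table, 4978 were at 0 in every library and 51 lie on several chromosomes. The HISAT2 version is not given in the sources used here.

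From the counts, edgeR 4.0.16 (with limma 3.58.1 under R 4.3.3) was run with TMM factors and filterByExpr (minimum count 10, minimum total 15). A single quasi-likelihood model held a mean for each of the 6 groups over all 18 libraries, without covariates, and p was adjusted by Benjamini-Hochberg over 13376 genes. The biological coefficient of variation was 13.8%. Calls needed an adjusted p no higher than 0.05 and 1 or more on the log2 scale. How the strain difference changed between the ages was a contrast of that model. Replicates of a group differed by more than sampling noise, so none was counted as a duplicate. The scripts were tested on simulated data.

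The genes named were the 10 of smallest p in each direction at 8 weeks, the 5 in each direction for the change, members of 43 gene lists, and genes called in opposite directions at the ages. Some members of the lists are not reported here by name. The members and lists were chosen with earlier results of these data known. Genes with at most 9 counts in the lower strain are given by a ratio of counts scaled to library totals with an exact 95% interval, and those with 0 by a bound against 3 counts a library. Intervals and bounds cover counting error only. Alternatives were DESeq2 1.42.0, edgeR with the size factors of DESeq2, TMM without the 20 genes of highest level, other low-count filters, a model of the compared groups alone, a replicate block, each library left out, glmTreat and no fold cutoff. Covariates of parotid and muscle genes were added after seeing the data. The 16-week comparison was not used here.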

Additional observations from a re-analysis of the deposited data

Results flagged for a closer look

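The strain difference changed between 3 and 8 weeks for 297 genes by the test of the change itself, and these are the named genes among them, each with its change of the log2 fold change (8 weeks minus 3 weeks) in brackets. Upward changes of interferon genes were those of Stat2 (1.27), Irf1 (1.39), Irf7 (2.42), Ifih1 (1.46), Ddx58 (1.01), Ifit1 (2.91), Ifi44 (3.00), Oasl2 (2.42), Bst2 (1.61) and Gbp2 (2.51). Among chemokines and their receptors they were those of Ccl5 (4.24), Ccl9 (1.6), Cxcl10 (7.73), Cxcl16 (2.01) and Cx3cr1 (2.28), and among genes of antigen presentation and myeloid cells those of H2-Ab1 (1.65), Cd74 (1.55), Ctss (1.71), Itgax (2.99), Fcer1g (1.85) and C3ar1 (2.24). The other upward changes were those of 4930597G03Rik (3.24), Abcb1a (1.46), Atf3 (1.86), Cdo1 (1.34), Dnase1 (3.06), Fdft1 (1.98), Fgg (2.15), Gpr155 (3.43), Mcm3 (2.20) and Slc41a2 (1.49).

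Downward changes of enzymes were those of Dpyd (−2.94), Upb1 (−1.65), Arg1 (−1.78), Pmvk (−1.55), Car6 (−1.45) and St6galnac2 (−2.06). The other downward changes were those of Adora1 (−4.39), Baiap2l1 (−1.86), Barx2 (−1.32), Bmp6 (−5.57), C7 (−1.49), Cidea (−1.81), Clock (−1.25), Eml1 (−1.84), Gm5886 (−8.69), Gm6084 (−4.26), Mki67 (−1.94), Mup5 (−3.96), Odam (−2.60), Rell1 (−1.64) and Slc27a2 (−1.69). 6 genes were called in opposite directions at the ages, upward at 8 weeks for Gpr155 and Ifi44 and downward for Bmp6, Adora1, Mup5 and Odam.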

How the results depend on the processing

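The count of 1549 genes called at 8 weeks lay between 1331 and 1562 with each library left out (978 to 1212 higher, 331 to 367 lower) and was 1474 by DESeq2, which called 1447 of the same genes. It was 730 (569 higher, 161 lower) by glmTreat, which tests against the fold cutoff itself, and 3713 (2189 and 1524) with no fold cutoff. The 297 changes from 3 to 8 weeks were 21 by glmTreat (4 upward, 17 downward) and 503 with no cutoff (268 and 235). The upward count was 276 by DESeq2 and 287 in a model of the compared groups alone, and leaving out single libraries gave 183 to 298 changes, 84 to 193 upward and 91 to 133 downward. The cause was not tested. The count of 12 NK genes was 5 with only genes of a mean CPM of at least 1, which tests fewer genes, and 7 in a model of the compared groups alone. The count of 12 helper and checkpoint genes was 6 in the latter model, and that of 20 chemokine genes 13 at a mean CPM of at least 1. Of 645 list counts under all alternatives, 596 were within 1.5 times the reported one, and no named gene changed direction. The deviations of same-numbered 8-week libraries from their group means correlated at 0.043, 0.151 and 0.282, and those of different-numbered ones between −0.219 and 0.070. At 3 weeks the same-numbered ones correlated at 0.309, 0.395 and −0.099, and the different-numbered ones between −0.444 and 0.327. Nothing in the labels ties same-numbered libraries, so the main model did not pair them. Whether they shared handling was not tested. The replicate block called 1541 genes at 8 weeks, 1516 of the same genes, and 255 changes. Genes with counts near 3 a library in BALB/c have folds that depth limits.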

Other observations

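Some cell cycle genes were called at each age. Of 27 tested, 16 rose at 3 weeks (median log2 fold change 1.77) and 8 at 8 weeks (median 1.05), with none lower at either age. Of all genes tested, 3.54% rose at 3 weeks and 8.93% at 8 weeks. The 3-week sum of the list was 100, 168 and 264 CPM in NOR and 72.5, 83.0 and 83.9 CPM in BALB/c. The 8-week count was 2 without BALB/c replicate 3, 4 without BALB/c replicate 1, 5 without NOR replicate 1 or 3 or with the parotid genes as a covariate, and 12 without NOR 3-week replicate 1. Mcm6, a subunit of the replication helicase, was at 13, 8.49 and 11.2 CPM in NOR and at 1.89, 2.73 and 0.959 CPM in BALB/c. Mki67, the proliferation marker, overlapped between strains at 8 weeks (24.9, 21.5 and 22.4 CPM against 27.8, 36.0 and 21.4 CPM), and its strain difference changed by −1.94 from 3 weeks.

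Of 5 clock genes of the Arntl phase, 2 fell, against 2.65% of all genes. None of 10 of the opposite phase was called, or 1 without BALB/c replicate 3. Arntl (BMAL1) was at 0.938, 0.868 and 0.881 CPM in NOR and at 6.92, 5.45 and 4.34 CPM in BALB/c. Clock, its partner, was at 54.3, 62.6 and 45.1 CPM against 90.9, 171 and 96.3 CPM, and was not called without BALB/c replicate 2. The hour of dissection is not in the labels. Of 18 immediate-early genes 4 rose (against 8.93% of all genes), among them Jun (2.96-fold), and 2 without NOR replicate 1.

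By chromosome, 8.0% (chromosome 16) to 15.6% (chromosome 17) of the genes tested on an autosome were called. Among 5 Mb bins with at least 20 genes tested, the highest shares were 18 of 45 genes between 10 and 15 Mb of chromosome 19, which holds Ms4a genes, and 29 of 76 between 35 and 40 Mb of chromosome 17, which holds genes of the MHC.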
